A study of Homo sapiens with 12 samples.

Results

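Genes that coat lipid droplets or make, break down and release triglyceride were followed in HepG2 cells, an established human liver cancer line, under low and high glucose with and without valproic acid (VPA). Members were the rows of the count table whose symbol is PLIN2, PLIN3, PLIN5, CIDEB, CIDEC, PNPLA2, PNPLA3, DGAT1, DGAT2 or ANGPTL4. Of these 10 genes 9 were found among the 16389 genes of the table, and CIDEB was not analysed here. RNA carrying poly(A) tails was sequenced from 12 libraries, 3 per group. LG cells were kept in 5.5 mM glucose and HG cells in medium brought to 20 mM glucose, both for 48 h. LGV and HGV cells had the same media and then 1 mM VPA for a further 12 h, and whether the untreated cells were harvested before or after those 12 h is not stated. All groups came from cells at the same passage of a single line, which has no other liver cell types around it. The labels number 3 replicates per group without saying that they were separate cultures, so p-values measure only the spread between these samples, which may be technical.

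Triglyceride is stored in lipid droplets, in which a core of neutral lipid is enclosed by a phospholipid layer and its coat proteins. Perilipins and CIDE proteins sit on that surface and govern droplet size and the access of lipases, while DGAT enzymes carry out the last acylation step that makes triglyceride. Liver cells use droplets as a buffer between fatty acid supply, oxidation and the secretion of very low density lipoprotein (VLDL). VPA is an anti-epileptic drug that inhibits histone deacetylases and is known for fat accumulation in liver as a side effect.

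Between 29798442 and 45572694 reads per library were counted on genes. The nearest library lay within the same group for 12 of 12 libraries, and ALB, the albumin gene that marks hepatocytes, ranged from 18946 to 29437 CPM (counts scaled to library size with TMM factors, as are all levels here). Of 12 marker genes of blood, endothelial, stromal and bile duct cells, 6 had a row in the table. Their summed level was 162 to 181 CPM in LG, 125 to 170 in HG, 172 to 227 in LGV and 222 to 270 in HGV. KRT19, a keratin of bile duct cells, alone had 63.8 to 211 CPM. Its means were 96.4 CPM in LG, 77.7 in HG, 156 in LGV and 180 in HGV. The mean of COL1A1 was also higher with VPA in both media, and those of ACTA2 and CD14 were lower. COL1A1 had only 0.125 to 0.374 CPM in LG and 0.280 to 0.419 CPM in HG, so its difference is uncertain. Means of PDGFRB and VWF were lower with VPA in low glucose and higher in high glucose. PTPRC, CD68, PECAM1, COL1A2, DCN and KRT7 were not analysed here. The sum of 8 hepatocyte genes was 39789 to 40746 CPM in LGV, below 51546 to 58286 in LG, and 46686 to 61328 in HGV, overlapping 52586 to 60466 in HG. The part of these markers in the differences with VPA given below was not tested. In bulk RNA, fewer cells of a kind and less RNA per cell cannot be told apart.

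The RefSeq promoter table held an entry for 6 of the 9 members, and no entry was found for PNPLA3, DGAT1 and DGAT2. Shown here are the 250 bases upstream of the start for the 4 members with an entry whose mean level was highest in HGV. The table is on GRCh38.p14, and each window matched GRCh37 once, at the positions given. Both strands were searched for CACGTG, which is the E-box, and for the TATA box as TATAAA. The other motifs were CCAAT and the GC box, GGGCGG. A nuclear receptor motif was searched as AGGTCA and a sterol element as TCACNCCAC, and capitals mark the matches. Of 35093 promoters of this length, 42.632% held GGGCGG, 31.998% CCAAT, 12.079% AGGTCA, 10.72% TATAAA, 6.343% CACGTG and 0.883% TCACNCCAC.
CIDEC (chr3:9921938-9922187, minus strand): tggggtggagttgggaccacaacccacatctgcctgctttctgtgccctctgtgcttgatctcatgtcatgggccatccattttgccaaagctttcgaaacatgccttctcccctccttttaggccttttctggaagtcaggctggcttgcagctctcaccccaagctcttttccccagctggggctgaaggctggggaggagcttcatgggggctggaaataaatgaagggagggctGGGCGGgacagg
PLIN5 (chr19:4535237-4535486, minus strand): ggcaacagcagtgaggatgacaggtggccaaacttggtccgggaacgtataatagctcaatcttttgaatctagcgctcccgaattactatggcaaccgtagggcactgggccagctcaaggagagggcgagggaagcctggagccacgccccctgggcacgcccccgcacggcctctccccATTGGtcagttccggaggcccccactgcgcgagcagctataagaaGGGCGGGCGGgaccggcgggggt
PLIN2 (chr9:19127491-19127740, minus strand): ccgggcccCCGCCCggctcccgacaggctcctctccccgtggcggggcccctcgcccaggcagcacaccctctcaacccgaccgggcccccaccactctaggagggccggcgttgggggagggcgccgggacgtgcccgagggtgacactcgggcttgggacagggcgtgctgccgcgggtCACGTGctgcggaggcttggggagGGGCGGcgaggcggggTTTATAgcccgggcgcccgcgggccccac
ANGPTL4 (chr19:8428789-8429038, plus strand): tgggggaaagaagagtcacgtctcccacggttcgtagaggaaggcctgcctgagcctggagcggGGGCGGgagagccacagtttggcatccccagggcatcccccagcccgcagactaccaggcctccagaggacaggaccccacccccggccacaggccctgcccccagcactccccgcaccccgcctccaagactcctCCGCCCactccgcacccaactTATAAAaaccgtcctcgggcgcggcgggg
Every window of the 4 contained GGGCGG, which is common among promoters. The PLIN2 and ANGPTL4 windows also held TATAAA, PLIN2 was the single window with CACGTG, and PLIN5 had CCAAT beside its 2 GC boxes, which overlap. A further CIDEC start lies at chr3:9920497-9920746 in the same table, where GTGGTGTGA, a match to the sterol element, was found instead. GC content was 78.0% in PLIN2, 68.8% in ANGPTL4, 63.2% in PLIN5 and 56.4% in CIDEC. The sterol element was also found in the PNPLA2 window, which is not shown, beside GGGCGG and AGGTCA. A match of letters describes the window and is not a known site of binding.

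Each comparison was fitted in edgeR (quasi-likelihood) over every gene whose mean count reached 10, and a false discovery rate (FDR) of 0.05 or less was a call. In high against low glucose (HG against LG), PNPLA3, ANGPTL4 and CIDEC were higher and PLIN3 and PNPLA2 lower. These 3 higher and 2 lower calls among 9 members stand against a background of 24.7% of all genes called, 12.0% higher and 12.7% lower. The groups did not overlap for 4 members, and 41.2% of all genes did not overlap. The median log2 fold change of the members was 0.0093, beside 0.011 for all genes.

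With VPA in high glucose (HGV against HG), CIDEC, PLIN5, PLIN3, PLIN2 and DGAT2 were higher and PNPLA3 was lower. That is 5 higher and 1 lower of 9 members, with 46.1% of all genes called, 25.8% higher and 20.2% lower. Groups did not overlap for 7 members and for 54.6% of all genes, and the median log2 fold change was 0.31 for the members and 0.025 for all genes. With VPA in low glucose (LGV against LG), PLIN3 was higher and PNPLA3 and DGAT2 were lower, so 1 member was higher and 2 lower. The background there was 41.6% of genes called, 21.7% higher and 19.9% lower. Only PNPLA3 and DGAT2, 2 of the members, had groups that did not overlap in that comparison, against 50.5% of all genes, and the median log2 fold change was -0.077 for the members and -0.0057 for all genes. The share of members called was thus below that of all genes in low glucose and above it in high glucose, with 9 genes behind each share and no test of the difference.

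In high against low glucose under VPA (HGV against LGV), CIDEC, PLIN5, PNPLA3, ANGPTL4 and DGAT2 were higher and no member was lower. These 5 of 9 members compare with 40.7% of all genes called, 21.2% higher and 19.5% lower, and the same 5 members had groups without overlap, as did 51.4% of all genes. For the count of 0 lower members, DESeq2's Wald test gave 1, which was PLIN3. An unadjusted p under 0.05 in edgeR was found for 6 of 9 members and for 7979 of 16208 genes. The median log2 fold change was 0.58 for the members and 0.0096 for all genes. Comparisons that share a group, such as HG against LG and HGV against HG, are not independent of each other.

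**Figure D1:**
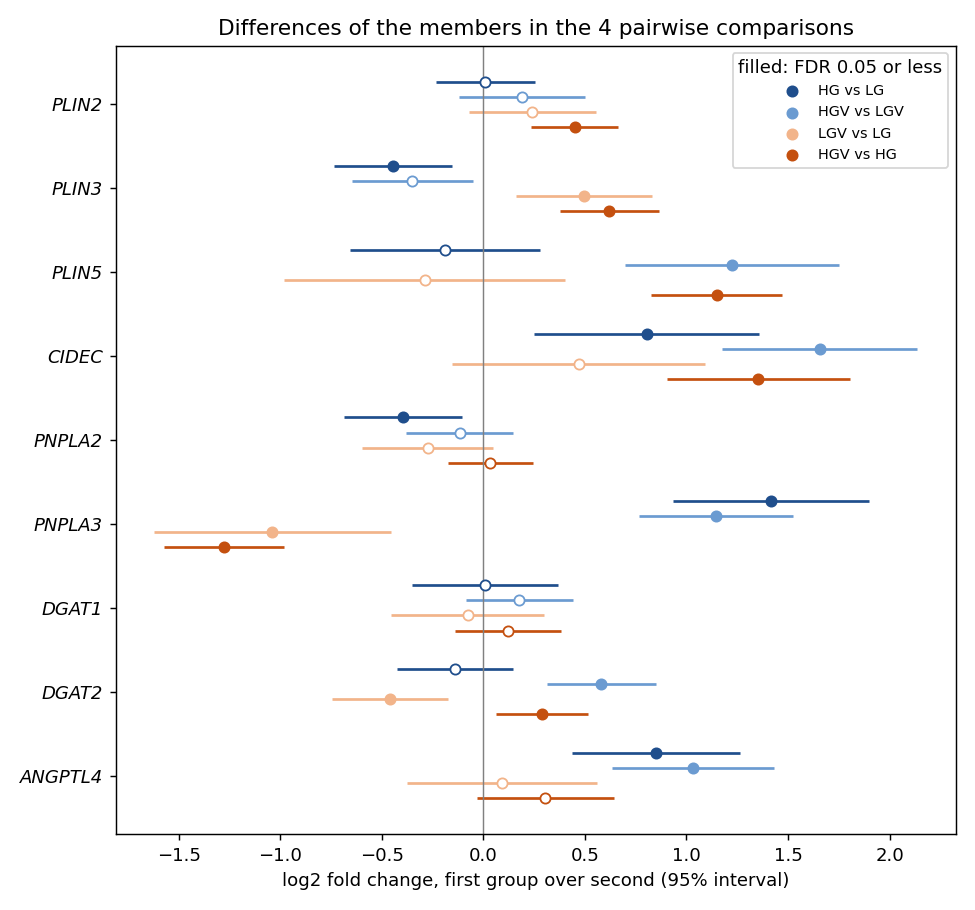
Log2 fold change of each member (horizontal axis) with its 95% interval in the 4 pairwise comparisons, first group over second. Filled points were called at an FDR of 0.05 or less in edgeR. CIDEC, PLIN5, PNPLA3, ANGPTL4 and DGAT2 lie to the right in HGV against LGV, and PNPLA3 lies to the left in both comparisons of VPA with untreated cells.

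PLIN2, the perilipin that coats droplets in most cell types and is the main one of hepatocytes, was the most abundant member. Per kilobase of exon its level in LG was 99.9 ± 5.03 CPM per kb (SD, n = 3), ahead of PNPLA2 at 45.4 ± 8.80 and PLIN3 at 40.6 ± 7.20, and these last 2 did not differ beyond their spread. The gene lies at chr9:19108373-19149288 (GRCh37, minus strand). It had 490.8, 529.2 and 481.7 CPM in LG and 476.4, 519.0 and 492.6 CPM in HG. LGV libraries had 467.8, 591.0 and 704.3 CPM and HGV libraries 696.6, 659.0 and 679.2 CPM. LG and HG overlapped, every HGV library was above every HG library, and the LGV libraries were spread from below LG to above HGV. The rise from HG to HGV was 0.45 ± 0.098 (log2 fold change ± SE; edgeR FDR 0.00242), a 1.37-fold difference. In low glucose the difference with VPA was 0.24 (95% interval -0.07 to 0.55; edgeR FDR 0.204). It became a call without LGV replicate 1, at 0.39 (FDR 0.0320), and was 0.11 without LGV replicate 3 (FDR 0.652).

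PLIN3, a perilipin that moves between the cytosol and young droplets, was lower with high glucose and higher with VPA. The gene (chr19:4838353-4867706, minus strand) had 126.8, 117.6 and 89.0 CPM in LG and 72.7, 86.9 and 81.2 CPM in HG. Under VPA it had 121.9, 173.9 and 170.1 CPM in LGV and 124.1, 136.2 and 110.1 CPM in HGV. HG was the lowest group, and all of its libraries were below all libraries of the 3 other groups. The HG against LG difference was -0.44 ± 0.14 (edgeR FDR 0.0262), and VPA raised the level by 0.62 ± 0.11 in high glucose (FDR 0.000660). In low glucose the rise was 0.50 ± 0.16 (FDR 0.0200), although LGV replicate 1 lay within the LG range. That call was lost without LG replicate 3, LGV replicate 2 or LGV replicate 3 (FDR 0.0516, 0.0841 and 0.0798), and the glucose call without LG replicate 1 or 2 or HG replicate 1 or 3 (FDR 0.0840 to 0.163). HGV against LGV was -0.35 (95% interval -0.65 to -0.05; FDR 0.0562). An lncRNA on the opposite strand overlaps 18.3% of its exon bases, and whether counting used the strand is not stated.

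PLIN5, a perilipin of tissues with high fatty acid oxidation that ties droplets to mitochondria, stood out in HGV. Its position is chr19:4522543-4535236 (minus strand). There were 6.58, 4.24 and 8.27 CPM in LG and 6.28, 5.02 and 5.24 CPM in HG. LGV libraries had 8.34, 3.15 and 4.003 CPM and HGV libraries 12.4, 11.0 and 13.3 CPM. All 3 HGV libraries were above the other 9, which overlapped with each other. VPA raised PLIN5 by 1.15 ± 0.15 in high glucose (edgeR FDR 4.57e-05), a 2.22-fold change, and HGV was above LGV by 1.22 ± 0.25 (FDR 0.000930). In low glucose the difference with VPA was -0.29 (95% interval -0.98 to 0.40; FDR 0.511). Without LGV replicate 1 it was -0.81 and was called (FDR 0.0380), and without LG replicate 3 it was -0.027 (FDR 0.957). A protein-coding gene on the same strand, CTB-50L17.14, shares 21.7% of the exon bases, and it had 10 to 29 reads in HG and 55 to 60 in HGV, so the counts of the pair are uncertain.

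CIDEC, which promotes the fusion of droplets into large ones, had the lowest level per kilobase in LG, at 0.866 ± 0.256 CPM per kb. Its position is chr3:9908395-9921939 (minus strand). LG libraries had 2.13, 1.15 and 1.81 CPM, HG libraries 2.63, 3.47 and 2.55, LGV libraries 3.03, 1.98 and 1.92 and HGV libraries 5.67, 7.30 and 9.15. The order of the means was LG, LGV, HG and HGV, with LGV overlapping both of its neighbours and HGV apart from all. CIDEC was 1.75-fold higher in HG than in LG (log2 0.80 ± 0.26; edgeR FDR 0.0325) and rose a further 2.56-fold in HGV (log2 1.35 ± 0.21; FDR 0.000181). The contrast of HGV with LGV was the largest rise of any member in the 4 pairwise comparisons, at 1.66 ± 0.23 (FDR 3.09e-05). VPA in low glucose gave 0.47 (95% interval -0.15 to 1.09; FDR 0.219). The HG against LG call was lost without LG replicate 2 or any single HG library (FDR 0.0564 to 0.157).

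**Figure D2:**
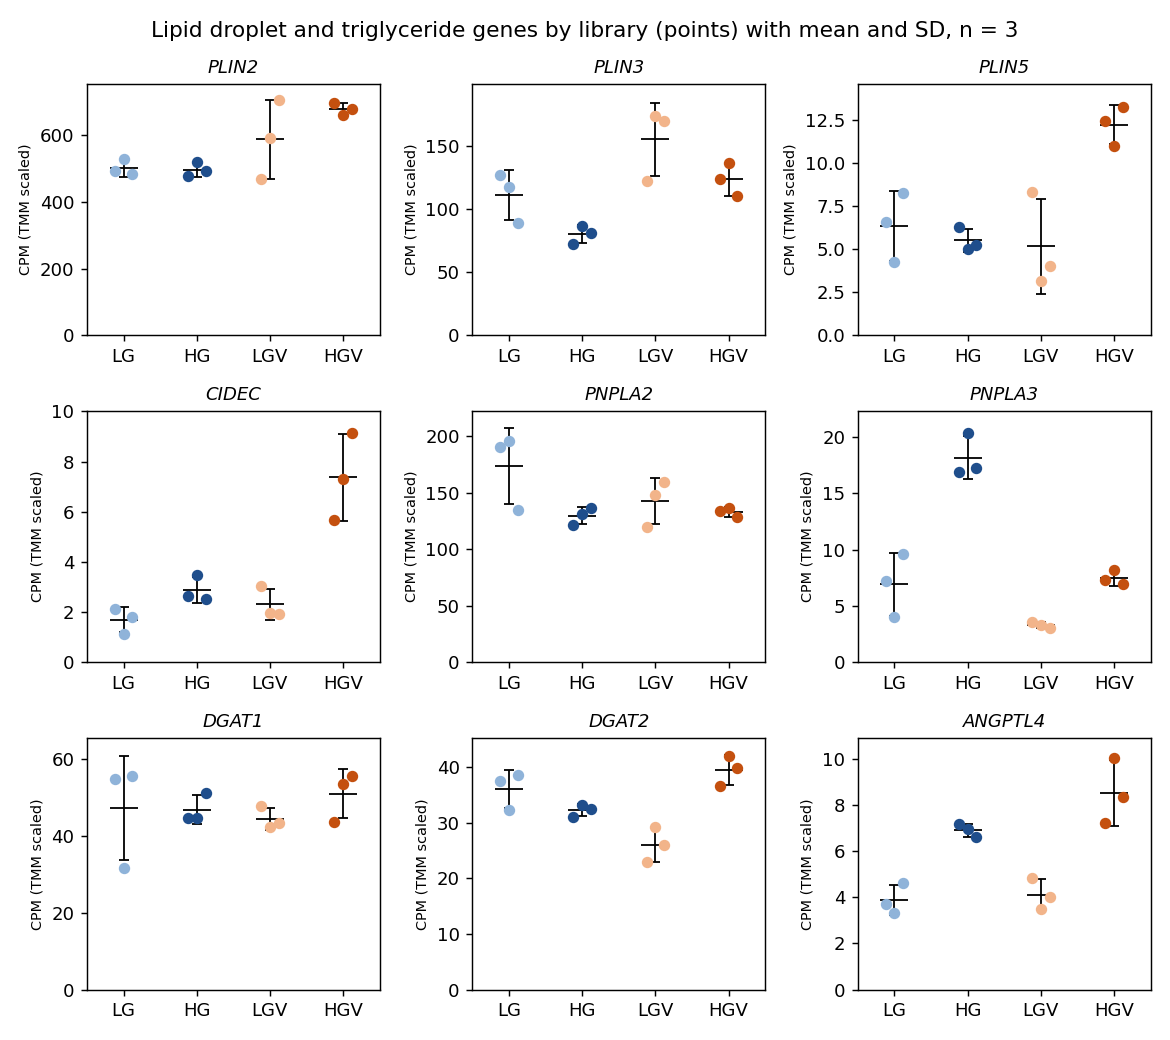
Level of each member in CPM (vertical axis, from 0) in the 3 libraries of each group (points), with the mean and SD as black bars. PLIN5 and CIDEC stand apart in HGV, PNPLA3 in HG, and DGAT1 overlaps in all groups.

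PNPLA2 encodes adipose triglyceride lipase, which starts the breakdown of stored triglyceride. The gene (chr11:818914-825573, plus strand) had 190.7, 195.9 and 135.1 CPM in LG and 121.5, 131.3 and 136.8 CPM in HG. LGV libraries had 120.1, 147.9 and 159.6 CPM and HGV libraries 133.6, 136.9 and 128.8 CPM. LG replicates 1 and 2 lay above the other 10 libraries, while LG replicate 3 lay within the HG range. HG was lower than LG by the test (-0.40 ± 0.14; edgeR FDR 0.0431), but the groups overlapped and the call was lost without any single library other than LG replicate 3 (FDR 0.0786 to 0.198). VPA gave 0.03 in high glucose (95% interval -0.17 to 0.24; FDR 0.792) and -0.27 in low glucose (-0.60 to 0.05; FDR 0.165). Without LG replicate 3 the low glucose difference was called, at -0.41 (FDR 0.0196), and without LGV replicate 1 it was -0.15 (FDR 0.473).

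PNPLA3, a relative of PNPLA2 on the droplet surface that is known as a target of SREBP-1c and ChREBP and for its link to fatty liver disease, varied the most. Its 4 group means spanned 2.27 on the log2 scale, and those of the 8 other members 0.19 to 1.84. PNPLA3 (chr22:44319672-44360368, plus strand) had 7.18, 3.99 and 9.60 CPM in LG and 16.9, 20.4 and 17.2 CPM in HG. With VPA it had 3.63, 3.34 and 3.07 CPM in LGV and 7.33, 8.23 and 6.91 CPM in HGV. HG was above all other groups, LGV was below all, and LG and HGV overlapped. High glucose raised it by 1.42 ± 0.23 without VPA (2.67-fold; edgeR FDR 0.000271) and by 1.14 ± 0.18 with VPA (2.21-fold; FDR 0.000101). It fell by 1.28 ± 0.14 with VPA in high glucose (FDR 1.00e-05) and by 1.04 ± 0.27 in low glucose (FDR 0.00702). These 4 calls were kept whichever library was left out. Its exons share 148 bases with SAMM50 on the same strand, 4.64% of the exon length. SAMM50 had 48.1 to 52.0 CPM in LG, 38.2 to 41.8 in HG, 42.4 to 45.6 in LGV and 28.5 to 35.9 in HGV.

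DGAT1 and DGAT2 are unrelated enzymes for the same final step, DGAT1 of the endoplasmic reticulum and DGAT2 also of the droplet surface. DGAT1 (chr8:145538247-145550573, minus strand) had 55.0, 31.7 and 55.6 CPM in LG, 44.7, 44.7 and 51.4 in HG, 47.9, 42.5 and 43.4 in LGV and 43.8, 53.7 and 55.8 in HGV. Its groups overlapped in each of the 4 comparisons, and the group means spanned 0.19 on the log2 scale. The differences were 0.01 for HG against LG (95% interval -0.35 to 0.37), 0.12 for HGV against HG (-0.14 to 0.38) and -0.08 for LGV against LG (-0.45 to 0.30). LG replicate 2 was the lowest library of the 12.

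DGAT2 (chr11:75470557-75512580, plus strand) moved in opposite directions with VPA in the different media. There were 37.5, 32.2 and 38.5 CPM in LG and 31.1, 33.2 and 32.5 CPM in HG, with overlap. LGV libraries had 22.9, 29.3 and 25.9 CPM, all below LG, and HGV libraries had 36.6, 41.9 and 39.8 CPM, all above HG. The difference with VPA was -0.46 ± 0.13 in low glucose (edgeR FDR 0.0127) and 0.29 ± 0.10 in high glucose (FDR 0.0394), so that HGV exceeded LGV by 0.58 ± 0.13 (FDR 0.00146). The high glucose call was lost in 5 of 6 fits without a library (all except HGV replicate 1, FDR up to 0.124) and with DESeq2 (FDR 0.0853). The low glucose call was lost without LGV replicate 1 or 3 (FDR 0.0636 and 0.0610).

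ANGPTL4, a secreted inhibitor of lipoprotein lipase, is a known target of the PPAR receptors. It lies at chr19:8428173-8439254 (plus strand). LG libraries had 3.70, 3.32 and 4.62 CPM, HG libraries 7.16, 6.94 and 6.61, LGV libraries 4.83, 3.51 and 4.003 and HGV libraries 7.21, 10.0 and 8.32. Both high glucose groups lay above both low glucose groups in every library. The glucose difference was 0.85 ± 0.20 without VPA (1.80-fold; edgeR FDR 0.00443) and 1.03 ± 0.19 with VPA (2.05-fold; FDR 0.000357). With VPA the difference was 0.31 in high glucose (95% interval -0.03 to 0.64; FDR 0.126), where the groups did not overlap, and 0.09 in low glucose (-0.37 to 0.56; FDR 0.765).

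Whether VPA acted differently in the 2 media was tested as an interaction over the 12 libraries. No member was called, and 0.0427% of all genes (7 of 16389) were. At an unadjusted p under 0.05 in edgeR there were 3 members, DGAT2, PLIN5 and CIDEC, beside 1852 of all 16389 genes. DESeq2's Wald test called 2, PLIN5 (FDR 0.0269) and DGAT2 (FDR 0.0173). Its count over all genes, larger than that of edgeR, is given below with the other settings. The interaction in edgeR was 0.76 ± 0.17 for DGAT2 (FDR 0.0754), 1.45 ± 0.39 for PLIN5 (FDR 0.132) and 0.89 ± 0.36 for CIDEC (FDR 0.340). Without LG replicate 2 both PLIN5 (1.65, FDR 0.0283) and DGAT2 (0.80, FDR 0.0301) were called, in a fit that called 217 of all genes. PLIN5 was also called without LGV replicate 1 (1.98, FDR 0.0251). Over the 12 fits without a library the count of all genes called ran from 1 to 217. The FDR in these fits ran up to 0.361 for PLIN5 and 0.243 for DGAT2. For PNPLA3, lower with VPA in both media, the interaction was -0.23 (95% interval -0.89 to 0.43; FDR 0.847).

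**Figure D3:**
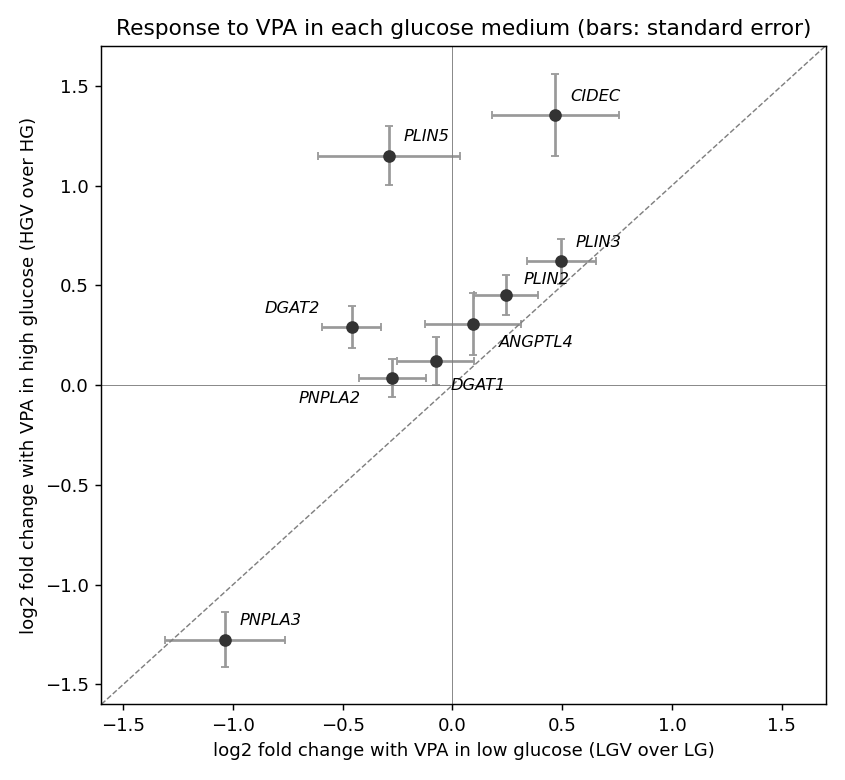
Log2 fold change with VPA in low glucose (horizontal axis) against that in high glucose (vertical axis) for the 9 members, with standard errors. On the dashed line both changes are equal. PLIN5, CIDEC and DGAT2 lie farthest above it and PNPLA3 lies close to it in the lower left.

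Related genes were described as 6 lists. Of all genes, 25.8% were called higher and 20.2% lower in HGV against HG, and 21.7% and 19.9% in LGV against LG. In HG against LG 12.0% were higher and 12.7% lower, and in HGV against LGV 21.2% and 19.5%. These shares are the background of the counts in every list. Among 14 genes of the acylation of glycerol, the steps before DGAT, 6 were higher and 3 lower with VPA in high glucose, and 4 higher and 2 lower in low glucose. On the log2 scale AGPAT4 rose by 3.12 and 2.70 and AGPAT2 by 1.58 and 0.87, both acyltransferases that make phosphatidic acid. AGPAT4 had only 0.204 to 0.549 CPM in LG and 0.329 to 0.412 CPM in HG, so its folds are uncertain. GPAM, the mitochondrial enzyme of the first acylation, was lower (-1.23 and -1.34). HG against LG had 4 higher and 4 lower, with MOGAT3 (0.66) and LPIN3 (0.64) up and AGPAT9 (-0.67) down. HGV against LGV had 5 higher and 4 lower, with MOGAT3 (1.27) and AGPAT2 (1.21) up and LPIN2 (-0.67) down. All these changes passed the FDR in edgeR.

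Lipolysis genes and their cofactors gave no call in edgeR in HG against LG among 5 tested. At an unadjusted p under 0.05 there was 1, beside 5863 of all 15452 genes. With VPA 3 of 6 were higher in HGV against HG and 2 of 5 in LGV against LG. ABHD6, a monoglyceride lipase, rose by 1.35 and 1.06 in these comparisons, and LIPA, the lysosomal acid lipase, by 1.15 and 0.91. HILPDA, a droplet protein that inhibits PNPLA2, rose by 0.66 in HGV against HG. HGV against LGV gave 3 higher and 1 lower, where ABHD5, the activator of PNPLA2, was lower (-0.98). G0S2, the other known inhibitor of PNPLA2, was among the higher genes but passed the filter on counts through HGV (0.618 to 0.853 CPM). In LGV it had 0.0325 to 0.1799 CPM, around the level of 3 reads (0.0801 to 0.0974 CPM), so no fold is given.

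Of 16 further droplet proteins, 6 were higher and 2 lower with VPA in each medium, led by TMEM159 (1.55 in high and 2.08 in low glucose), a partner of seipin. PLIN4 (0.65) rose with VPA in high glucose. Glucose raised 3 and lowered 4 of the list without VPA, with SQLE (1.11) and PLIN1 (0.97) up and AUP1 (-1.03) down. PLIN1 was low, at 0.324 to 0.383 CPM in LG and 0.588 to 0.729 CPM in HG, so its fold is uncertain. Under VPA glucose raised 1, SQLE (0.85), and lowered 6, among them FITM1 (-1.24) and AUP1 (-0.99). Of 7 genes of sterol ester synthesis and VLDL lipid loading, SOAT2 was lower in each of the 4 comparisons (-0.61 to -0.66), and SOAT1 was higher with VPA in high (0.79) and low glucose (0.61). CES1 rose with glucose by 0.50 without and 0.53 with VPA, and MTTP, which loads lipid onto apolipoprotein B, by 0.33 without VPA. In this list 2 genes were higher and 1 lower in HG against LG, HGV against HG and LGV against LG, and 1 each way in HGV against LGV.

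Among 8 extracellular lipases and their regulators, the group of ANGPTL4, glucose raised 3 and lowered 1 without VPA and raised 5 and lowered 1 with it. LIPG, endothelial lipase, was higher by 2.07 and 2.28, and C19orf80, which encodes ANGPTL8, by 1.35 and 2.48. For C19orf80 the HG libraries (15.6 to 52.4 CPM) overlapped those of LG (9.13 to 18.0 CPM). VPA raised 1 and lowered 4 in low glucose, where C19orf80 was lower (-1.73), and raised 2 and lowered 2 in high glucose. PCSK5, a protease that cleaves lipases and their regulators, rose with VPA by 2.34 in high and 1.83 in low glucose, and PCSK6 was lower (-1.07 and -1.45). Of 17 PPAR receptors and targets, 8 were higher and 3 lower in HG against LG, 5 and 7 in HGV against HG, 4 and 4 in LGV against LG and 6 and 4 in HGV against LGV. CD36, a fatty acid transporter, was higher by at least 1.25 in all 4. It had only 0.150 to 0.374 CPM in LG and 0.666 to 0.778 CPM in HG, so its folds are uncertain. PDK4 was called higher in HG against LG and LGV against LG, but at 0.128 to 0.225 CPM in LG, close to the level of 3 reads (0.0749 to 0.112 CPM), it passed the filter through the other group and no fold is given. EHHADH, a peroxisomal oxidation enzyme, was lower with VPA (-1.20 and -1.69). For the interaction, none of the 68 genes of the 6 lists was called in edgeR. An unadjusted p under 0.05 was found for 7 of them, beside 1852 of all 16389 genes.

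**Figure D4:**
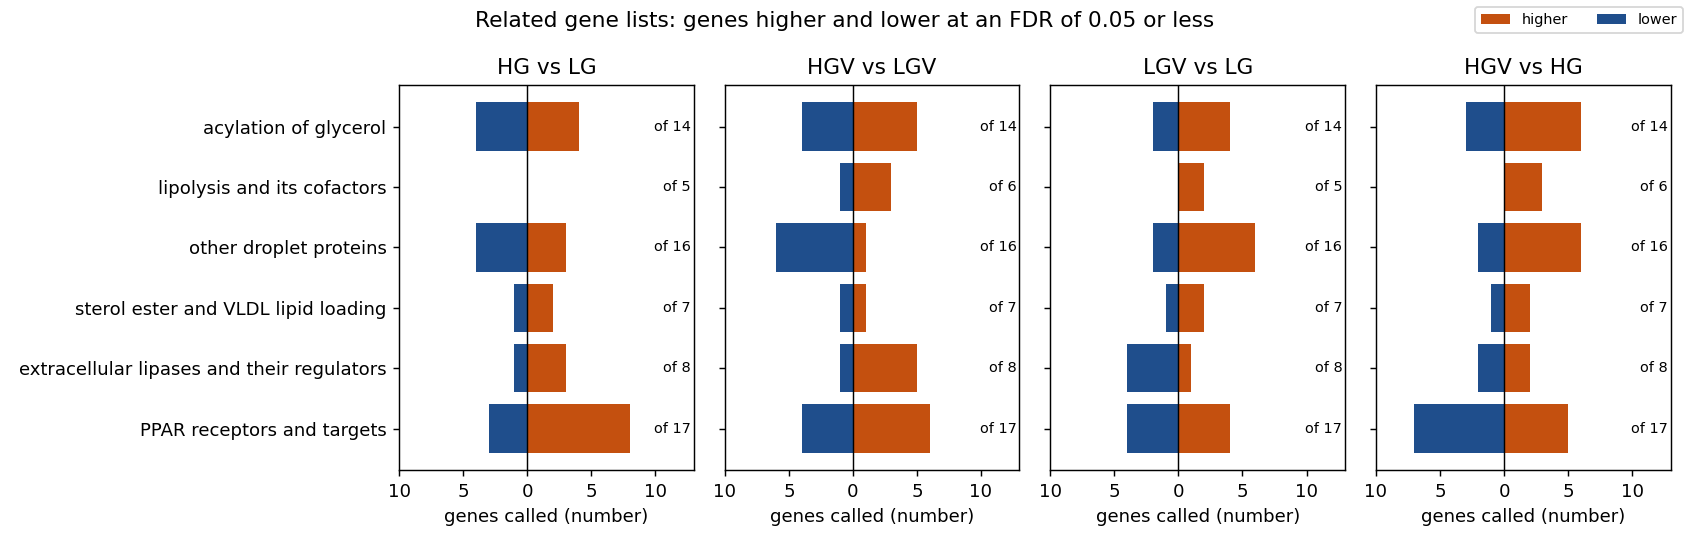
Number of genes called higher (bars to the right) and lower (bars to the left) in the 6 related lists and the 4 pairwise comparisons, with the number tested at the right. In HGV against LGV the droplet proteins have 1 higher and 6 lower of 16, beside 21.2% higher and 19.5% lower of all genes.

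The patterns of the 2 members with the widest range were set beside those of 13467 genes with a mean of at least 1 CPM, using Pearson's r of log2 CPM over the 12 libraries as a description. PNPLA3 was most like HPR (0.989), AATK (0.986), DAK (0.985), ESPN (0.976) and CHST10 (0.974). CIDEC was most like CDH16 (0.979), TMEM175 (0.975), MST1R (0.969), RP11-473M20.7 (0.968) and WDR31 (0.967). HPR has a close copy, HP, so its counts are uncertain, and the 12 points share 4 group means.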

How the data were processed

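Counts were analysed for 12 libraries of HepG2 cells. Reads of 50 nt from one end were quality trimmed by the authors, mapped to GRCh37 (STAR) and assigned to Ensembl genes (featureCounts). They deposited raw counts for the 16389 genes that averaged 10 reads or more per library. Use of strand in counting is not stated.

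Counts were scaled by TMM factors (0.879 to 1.095) in edgeR 4.0.16 (R 4.3.3) and tested with the quasi-likelihood F test over every gene whose mean count reached 10, within the 6 libraries of a comparison or, for the interaction, all 12. P-values were adjusted by Benjamini-Hochberg, and calls made at an FDR of 0.05 or less. The script was tested on simulated data. Exon lengths, positions and overlaps came from GENCODE v44lift37, promoters from RefSeq. GENCODE v44lift37 is not the Ensembl annotation that the authors counted on, so levels per kilobase and shares of overlap are approximate. RefSeq starts can lie inside the GENCODE spans, as those of PLIN2 and ANGPTL4 do. Read totals limit low genes most: CIDEC had under 10 CPM in each library. Alternatives were DESeq2 1.42.0, other scalings and filters, a replicate block and leaving out each library.

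Members and lists were chosen with earlier results of these data known. All members were named, and from each related list the counts and at most the 3 called genes with the largest change per comparison. Same-numbered libraries of HG and LG had deviations correlated at -0.295 to 0.0054. In HGV against HG 2 of 3 pairs were over 0.1 (-0.268 to 0.344). In LGV against LG and HGV against LGV it was 1 of 3 (up to 0.414 and 0.277). With 3 libraries per group this cannot decide whether numbers pair libraries, and the main fits used group only. Figures used matplotlib 3.10.9.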

Additional observations from a re-analysis of the deposited data

Results flagged for a closer look

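DGAT2 moved in opposite directions with VPA in the 2 media. Every LGV library (22.9 to 29.3 CPM) was below every LG library (32.2 to 38.5 CPM), and every HGV library (36.6 to 41.9 CPM) was above every HG library (31.1 to 33.2 CPM). The difference of the log2 fold changes was 0.76 ± 0.17 (edgeR interaction, FDR 0.0754), which did not pass the threshold, and the FDR was 0.0173 in DESeq2. Groups of 3 libraries are too small for the check of single libraries far from the others.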

How the results depend on the processing

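Of the 19 member differences called, 138 of 152 values under other settings kept direction and call, and 14 kept direction but lost the call. Of those not called, 190 of 199 stayed so in the same direction, 6 became calls and 3 changed sign. With 1 library left out, 91 of 114 values of called members kept the call and none changed sign. Among members not called, 12 of 210 changed sign and 8 became calls.

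An FDR of 0.01 gave 1852 genes for HG against LG, 4263 for HGV against LGV and 1 for the interaction, with 0 lower members in HG against LG and 0 higher and 1 lower in LGV against LG. With library size in place of TMM, the median log2 fold change of all genes was 0.095 to 0.16 in the 4 pairwise comparisons, and -0.0057 to 0.025 with TMM. Members lower in HG against LG were then 0, beside 1297 lower of all 15452 genes (1959 with TMM). In LGV against LG 2 members were higher and 1 lower. Of all 15944 genes there, 4500 were higher and 1956 lower (3461 and 3177 with TMM). DGAT1 in LGV against LG was 0.079, and the interaction gave 1 gene. Higher calls became 62.6% of calls in HG against LG (48.6% with TMM), 68.1% (56.1%) in HGV against HG, 69.7% (52.1%) in LGV against LG and 62.0% (52.2%) in HGV against LGV. With no filter, 1 member was lower in HG against LG. DESeq2's Wald test gave 1 lower member in HGV against LGV (PLIN3), and 162 genes and 2 higher members for the interaction. PNPLA2 in HGV against HG was -0.0025 with DESeq2's size factors and with its Wald test. The cause was not tested.

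With replicate number as a block, 1 member was lower in HG against LG (PNPLA2 lost, FDR 0.0666), 1 in HGV against LGV (PLIN3, FDR 0.0232), and the interaction gave 13 genes. Whether the numbers pair libraries is not known.

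Leaving out each library gave 1933 to 5338 genes for HG against LG, with 2 to 3 higher and 0 to 2 lower members. HGV against HG gave 6083 to 7793 genes, 4 to 5 higher and 1 lower member. LGV against LG gave 4942 to 6986 genes, 0 to 2 higher and 1 to 3 lower. HGV against LGV gave 4516 to 7228 genes, 5 higher and 0 to 1 lower. The interaction gave 1 to 217 genes (217 without LG replicate 2), with 0 to 2 higher members. Members that were not called but changed sign ranged, in HG against LG, from -0.037 to 0.075 (PLIN2), -0.39 to 0.064 (PLIN5) and -0.19 to 0.15 (DGAT1). The range was -0.033 to 0.072 for PNPLA2 in HGV against HG, and -0.30 to 0.072 for DGAT1 and -0.027 to 0.26 for ANGPTL4 in LGV against LG. For the interaction it was -0.0093 to 0.28 (PLIN3) and -0.55 to 0.024 (PNPLA3).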
